A study of Mus musculus with 6 samples.

Results

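The transcription factor p53, encoded by Trp53, and 9 genes that p53 activates (Cdkn1a, Mdm2, Ccng1, Bax, Gadd45a, Btg2, Sesn2, Phlda3 and Zmat3) were examined in primary murine hepatocytes overexpressing Aloxe3, a lipoxygenase gene. The 10 genes were chosen by name, as widely used readouts of the p53 pathway, with earlier results of these data known. All 10 are among the 41388 Ensembl genes of the deposited table. Hepatocytes of C57BL/6J mice, kept overnight in growth medium after collagenase digestion, were given adenovirus encoding β-gal, the control protein, or adenovirus encoding ALOXE3, at about 1000000 viral particles per 1000000 cells. RNA was collected 24 h later from 3 cultures per group (β-gal replicates 1, 2 and 3, Aloxe3 replicates 7, 8 and 9). Both groups therefore carry an adenoviral vector, and a culture without virus was not analysed here. The labels do not say whether the cultures came from separate mice. The p-values therefore judge the groups against the spread between these cultures, which may be technical. The sources used here give no age, sex or promoter of the transgene.

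p53 is held at a low protein level by Mdm2, which marks it for destruction, and is stabilized when DNA is damaged or the cell is stressed. It then binds paired decamers in DNA and raises transcription of genes that stop the cell cycle, start apoptosis, repair DNA or adjust metabolism, and also of Mdm2 itself, which closes a feedback loop. Because p53 is largely controlled as a protein, the mRNA of its targets is commonly read as a sign of its activity, and that of Trp53 is not. In liver, p21, the product of Cdkn1a, is known as a brake on hepatocyte proliferation.

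To show what these genes share in sequence, promoter windows of RefSeq (GRCm38.p6, 250 bases before to 50 bases after each start) were searched for the p53 decamer consensus (a CNNG core with A or T in the middle, purines before it and pyrimidines after it). The consensus is its own reverse complement, so that one search covers both strands. Windows were found for 9 of the 10 genes (10 windows, none for Zmat3). Of these 9 genes 6 held at least 1 exact decamer, against 8.36% of all 32851 windows. The genes were chosen as p53 targets, so this comparison is a description and tests nothing. These 6 were Cdkn1a, Trp53, Mdm2, Ccng1, Bax and Gadd45a. Cdkn1a has 2 annotated starts, and the upstream one held 2 exact decamers, a number that 0.359% of all windows reached, while the downstream one held none. A pair of adjacent decamers with at most 1 mismatch to the consensus was present at Cdkn1a and at Ccng1, and in 0.067% of all windows. Below are the 250 bases before the upstream start of Cdkn1a (chr17:29090729-29090978, forward strand) and before the start of Ccng1 (chr11:40755287-40755536, reverse strand), because these 2 genes hold the closest matches and differ in what was measured, followed by 40 bases around the decamer of Trp53 (chr11:69580269-69580308, forward strand) and Mdm2 (chr10:117710920-117710959, reverse strand). Capitals mark exact decamers and the adjacent pairs. A match describes the letters of the window and is not evidence of binding.
Cdkn1a: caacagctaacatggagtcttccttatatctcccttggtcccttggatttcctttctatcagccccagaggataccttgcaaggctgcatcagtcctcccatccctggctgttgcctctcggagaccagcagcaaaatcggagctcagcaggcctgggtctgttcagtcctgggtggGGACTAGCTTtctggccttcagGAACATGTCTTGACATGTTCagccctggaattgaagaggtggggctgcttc
Ccng1: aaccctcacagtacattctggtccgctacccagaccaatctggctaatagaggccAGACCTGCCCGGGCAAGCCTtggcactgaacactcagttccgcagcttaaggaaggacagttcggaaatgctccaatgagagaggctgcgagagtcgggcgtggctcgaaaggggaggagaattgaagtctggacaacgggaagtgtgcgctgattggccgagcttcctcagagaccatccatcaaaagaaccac
Trp53: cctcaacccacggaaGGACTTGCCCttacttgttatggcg
Mdm2: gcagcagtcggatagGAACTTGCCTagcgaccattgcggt

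The RPKM values (reads per kilobase of a gene relative to the total of its library) rest on 25521908 to 32431318 reads per library, derived from the whole-number steps of the values. Between replicates the reads per gene differed by more than counting error (chi-square per degree of freedom 3.47 to 5.46), and Aloxe3 replicate 9 stood further from the other Aloxe3 libraries (8.99 and 9.82). Aloxe3 itself was at 1.74 to 2.06 RPKM with β-gal and 42.3 to 56.3 RPKM with Aloxe3, as the labels have it. The cells expressed Alb at 4362 to 4552 RPKM, while the hepatocyte markers Cyp2e1 (2.03 to 2.86 RPKM) and Tat (0.193 to 0.661 RPKM) were low. Of the 9 hepatocyte markers tested 1 passed the adjusted threshold of 0.05 with limma: Ttr, the thyroid hormone carrier transthyretin, fell from 119, 131 and 122 RPKM with β-gal to 99.4, 101 and 101 RPKM with Aloxe3 (adjusted p = 0.0448, and 0.0793 to 0.15 with a library left out). Groups did not overlap with Aloxe3 lower for 3 of the 9 (Ttr, Apoa1 and Serpina1a) and with Aloxe3 higher for 1 (Cps1), against 8.71% and 11.2% of all genes tested. Cps1, of the urea cycle, had 0.915 to 1.05 RPKM with β-gal and 1.29 to 1.64 RPKM with Aloxe3, a log2 fold change of 0.33 (adjusted p = 0.161 from limma) that was 0.59 with voom, where it passed (adjusted p = 0.0138). Of the markers of other liver cells, Cd68 of Kupffer cells and other macrophages was at 129 to 149 RPKM, Lyz2 at 6.65 to 9.50 RPKM, and Adgre1, Csf1r, Marco, C1qa and C1qb between 0.705 and 2.42 RPKM, while Clec4f, Vsig4 and Timd4 were at or below 0.102 RPKM. Of the stellate cell markers, Lrat was listed at 0 in all libraries. Col1a1 (2.09 to 2.53 RPKM), Dcn (0.909 to 1.35 RPKM) and Acta2 (0.794 to 1.06 RPKM) reached the level tested. The groups of Acta2 did not overlap, with Aloxe3 lower, as for 8.71% of all genes tested. Its log2 fold change was -0.10 (adjusted p = 0.54 from limma), and the groups of Col1a1 and Dcn overlapped. Endothelial Cdh5 was at 14.2 to 16.6 RPKM and Spp1, a marker of cholangiocytes that other cells also make, at 1431 to 1638 RPKM. Of the tested markers of Kupffer (7), endothelial (8), stellate (3) and cholangiocyte (5) cells 0 passed an adjusted p of 0.05 with limma. Cd68 had a log2 fold change of -0.15 and an unadjusted p under 0.05. Onecut1, listed for cholangiocytes, had 0.442 to 0.518 RPKM with β-gal and 0.824 to 1.08 RPKM with Aloxe3, a log2 fold change of 0.43 on the log2(RPKM + 1) scale (adjusted p = 0.0869) and of 1.05 with voom, where it passed (adjusted p = 0.0023). The summed level of the Kupffer list was 162 to 168 RPKM with β-gal and 142 to 157 RPKM with Aloxe3, which was mostly Cd68. Without Cd68 it was 13.4 to 19.0 RPKM and 13.5 to 16.1 RPKM, and the groups overlapped for each of the other 6 Kupffer genes tested. The part of these marker differences in the results was not tested. No lymphocyte or neutrophil marker reached the level tested. In bulk RNA, fewer cells of a type and less RNA per cell cannot be told apart.

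All 10 genes were well expressed. Their mean levels lay between percentiles 75.9 and 98.3 of the 12693 genes tested (those whose mean reached 0.5 RPKM), and 1260 to 7675 derived reads stood behind each value. For 6 of the genes the GENCODE M21 exon length gave whole reads. For Cdkn1a, Mdm2, Bax and Zmat3 it did not, and the smallest length that gave whole reads was used (869 bases for Bax, against 1576 annotated, and 2223 for Cdkn1a), so that their read numbers and voom values rest on that choice. Per length, Bax was the most abundant, at a mean of 180 RPKM over the 6 libraries. Cdkn1a followed at 88.7 RPKM, Gadd45a at 72.1, Trp53 at 58.1, Mdm2 at 44.7, Ccng1 at 39.0, Phlda3 at 30.2 and Sesn2 at 24.99 RPKM. Btg2, at 20.1 RPKM, and Zmat3, at 19.4 RPKM, closed the order. Each gene was above the next in all 6 libraries with ranges that did not overlap, except that the ranges of Btg2 and Zmat3 overlapped and Btg2 was the higher in 4 of 6 libraries. This order holds for the deposited values, whose gene lengths are not given. Rescaled to the annotated exon lengths, Cdkn1a would be at 55.5 (3553 bases), below Gadd45a and Trp53, Bax at 99.1, still the highest, and Zmat3 at 13.7.

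No gene of the 10 passed the test between groups, and every difference was small. Values were compared as log2(RPKM + 1) with limma and Benjamini-Hochberg adjustment over all genes tested, and 0 of the 10 had an adjusted p under 0.05, where 50 of the 12693 genes (0.394%) did, 0.355% higher and 0.0394% lower with Aloxe3. At an unadjusted p under 0.05 there were 2 of the 10, Cdkn1a and Mdm2, both higher with Aloxe3, as were 7.31% of all genes tested, while 5.42% were lower. With voom on the derived reads 1 of the 10, Cdkn1a, passed the adjusted threshold, as did 1.36% of all genes, 1.16% in the higher direction. Groups did not overlap for 3 of the 10 (Cdkn1a, Mdm2 and Trp53), each with all Aloxe3 libraries above all β-gal libraries, where 11.2% of all genes tested had this pattern. The median log2 fold change of the 10 was 0.04, and that of all genes tested 0.00492. Over the 10 genes the 95% intervals of the fold change, on the log2(RPKM + 1) scale, spanned 0.872 to 1.21.

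**Figure D1:**
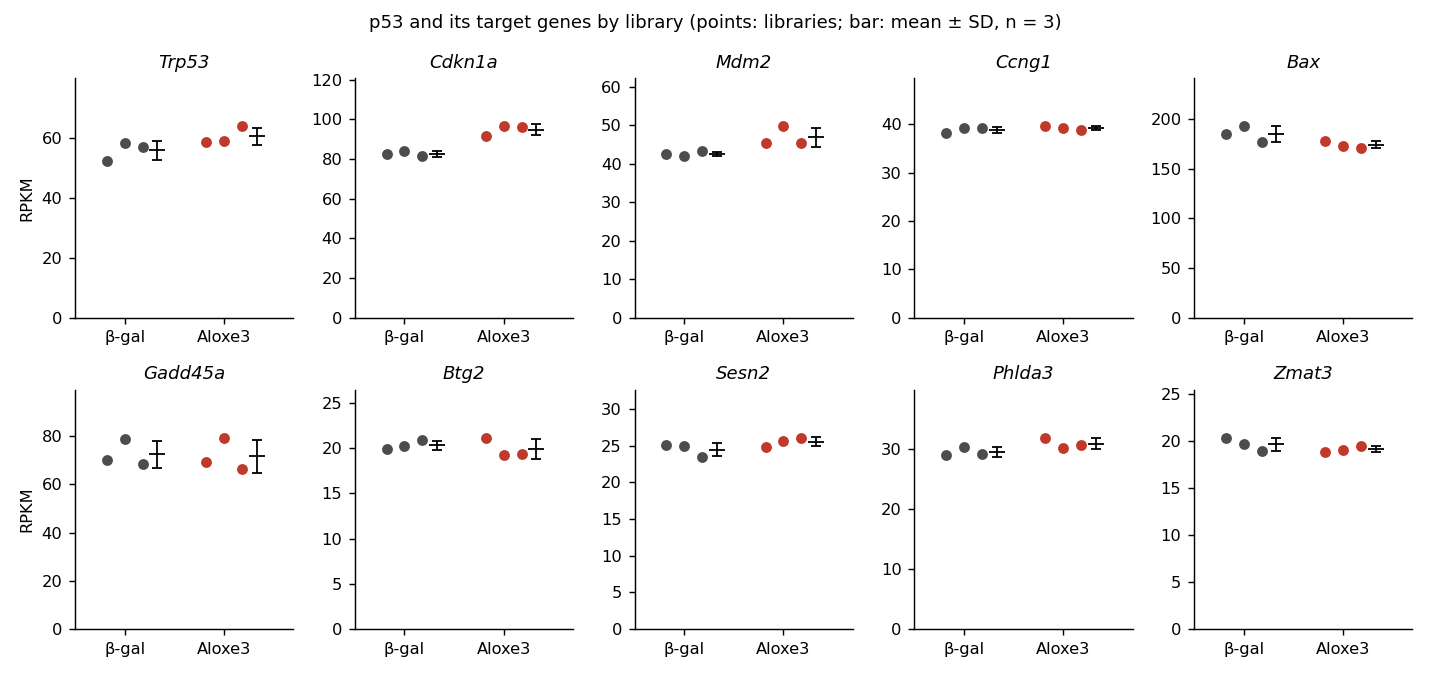
RPKM (vertical axes, from 0) of Trp53 and its 9 targets in the 3 β-gal (grey) and 3 Aloxe3 (red) libraries, points in the order of the replicate numbers, with the mean and SD beside them. The Aloxe3 points of Cdkn1a (91.5 to 96.6 RPKM) lie above its β-gal points (81.4 to 84.2 RPKM), those of Mdm2 and Trp53 lie above theirs by less, and the points of the other 7 genes overlap between groups.

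Trp53, the gene of p53 itself, lies on chromosome 11 of GRCm38 (69580359 to 69591873, forward strand), 431 kb beyond the end of the Aloxe3 gene. It had 52.3, 58.2 and 57.0 RPKM with β-gal and 58.5, 59.0 and 63.9 RPKM with Aloxe3. The highest β-gal library and the lowest Aloxe3 library were almost level, so that the groups only just failed to overlap. The means were 55.8 ± 3.15 and 60.5 ± 2.97 RPKM (SD, n = 3 each), which limma put at a log2 fold change of 0.11 with an SE of 0.0535 and an adjusted p of 0.429. Leaving out β-gal replicate 1 gave 0.067, and leaving out Aloxe3 replicate 9 gave 0.074, on the same log2 scale. The exact permutation test gave a two-sided p of 0.1, the smallest that 3 libraries against 3 allow. A processed pseudogene, Trp53-ps, took 0 to 2 reads per library, against 6038 or more on Trp53.

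Mdm2, the ubiquitin ligase that both answers to p53 and removes it, lies on chromosome 10 (117688875 to 117710758, reverse strand). It had 42.5, 42.0 and 43.2 RPKM with β-gal and 45.5, 49.8 and 45.5 RPKM with Aloxe3. All Aloxe3 libraries were higher, replicate 8 most. The log2 fold change was 0.14 (SE 0.0438, 95% interval 0.03 to 0.24, adjusted p = 0.291 from limma), and it was 0.09 without Aloxe3 replicate 8. Set against Trp53 in the same library, Mdm2 stood at 0.721 to 0.812 RPKM per RPKM of Trp53 with β-gal and at 0.712 to 0.844 with Aloxe3. These ratios overlapped between groups.

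Among the targets that act in growth arrest, Cdkn1a was the one with the largest difference of the 10 genes. Its product p21 inhibits cyclin-dependent kinases, and the gene lies on chromosome 17 (29090976 to 29100727, forward strand). It had 82.3, 84.2 and 81.4 RPKM with β-gal and 91.5, 96.6 and 96.3 RPKM with Aloxe3. The gap between the groups was wider than the spread within either. Means were 82.7 ± 1.42 and 94.8 ± 2.87 RPKM (SD, n = 3 each), 14.7% apart, with a log2 fold change of 0.20 (SE 0.0364, 95% interval 0.11 to 0.28). It ranked 102 of 12693 genes by p, and its adjusted p of 0.0993 from limma was above the threshold. It stayed above in 12 of 13 alternatives, and voom gave an adjusted p of 0.0231 (range over the alternatives 0.0231 to 0.326). Counts per gene do not separate the 2 starts shown above. A gene model on the other strand, AC167363.2, shares 273 exonic bases with Cdkn1a, and whether the counting used the strand is not given in the sources used here.

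Ccng1 encodes cyclin G1, which recruits a phosphatase to Mdm2, and its promoter window holds an adjacent pair of decamers as that of Cdkn1a does. Its difference between groups and its SE were the smallest of the 10. Its values were 38.1, 39.2 and 39.3 RPKM with β-gal and 39.6, 39.3 and 38.8 RPKM with Aloxe3, on chromosome 11 (40748552 to 40755311). The libraries of both groups were intermingled. With limma its log2 fold change was 0.01, with an SE of 0.032 and an adjusted p of 0.897. Over the fits with a library left out the log2 fold change was 0.00042 to 0.021. With all 6 libraries the 95% interval of the linear fold change ran from 0.959 to 1.06. That interval lay below the 1.08 at which the interval of Cdkn1a began. So did the intervals of Bax, Btg2 and Zmat3, with upper ends of 1.01, 1.06 and 1.04.

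Gadd45a, a stress sensor that holds cells before mitosis, varied most among replicates. It had 70.1, 79.0 and 68.4 RPKM with β-gal and 69.1, 79.4 and 66.5 RPKM with Aloxe3 (chromosome 6, 67035096 to 67037457). One library of each group, β-gal replicate 2 and Aloxe3 replicate 8, stood above the others, and the groups overlapped throughout. The spread within groups was 7.83% and 9.53% of the mean, whereas counting error alone would give 1.8% at the lowest read number. In limma the log2 fold change of -0.02 had an SE of 0.0779 and an adjusted p of 0.948, and it was 0.045 without β-gal replicate 2, 0.0067 without Aloxe3 replicate 7 and 0.034 without Aloxe3 replicate 9. The noncoding gene E230016M11Rik on the other strand shares 337 exonic bases with Gadd45a. Btg2, an antiproliferative adaptor of mRNA decay (chromosome 1, 134075170 to 134079120), had 19.9, 20.2 and 20.9 RPKM with β-gal and 21.2, 19.2 and 19.4 RPKM with Aloxe3. Its groups overlapped, with a log2 fold change of -0.03 (SE 0.0462), which was -0.00441 without Aloxe3 replicate 8 and -0.07 without Aloxe3 replicate 7.

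The targets that act in cell death gave values on both sides of 0. Bax, which opens the outer membrane of mitochondria (chromosome 7, 45461697 to 45466898), had 185, 193 and 177 RPKM with β-gal and 178, 173 and 171 RPKM with Aloxe3. A single Aloxe3 library, replicate 7, exceeded the lowest β-gal library. The log2 fold change was -0.09 (SE 0.0414, 95% interval -0.18 to 0.01, adjusted p = 0.433 from limma), the lowest of the 10, and it was -0.057 without β-gal replicate 2. Bax shares 192 exonic bases with the readthrough gene model Gm45808. Phlda3, which keeps the kinase Akt from the membrane (chromosome 1, 135766119 to 135769136), had 29.0, 30.4 and 29.1 RPKM with β-gal and 31.9, 30.1 and 30.6 RPKM with Aloxe3. The groups overlapped by 1 library on each side, with a log2 fold change of 0.06 (SE 0.0379), or 0.041 without Aloxe3 replicate 7. Zmat3, an RNA-binding zinc finger protein (chromosome 3, 32334792 to 32366014), had 20.3, 19.6 and 18.9 RPKM with β-gal and 18.8, 19.1 and 19.5 RPKM with Aloxe3, which overlapped as well, with a log2 fold change of -0.03 (SE 0.0386). It was -0.01 without β-gal replicate 1 and -0.06 without β-gal replicate 3.

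Sesn2, the sestrin that restrains mTORC1 when amino acids are short (chromosome 4, 132492032 to 132510501), was the 1 metabolic target of the 10. It had 25.1, 24.9 and 23.4 RPKM with β-gal and 24.8, 25.7 and 26.1 RPKM with Aloxe3. The lowest Aloxe3 library was below 2 of the β-gal libraries. From limma came a log2 fold change of 0.06, an SE of 0.0407 and an adjusted p of 0.572. Without β-gal replicate 3 the fold change was 0.029.

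**Figure D2:**
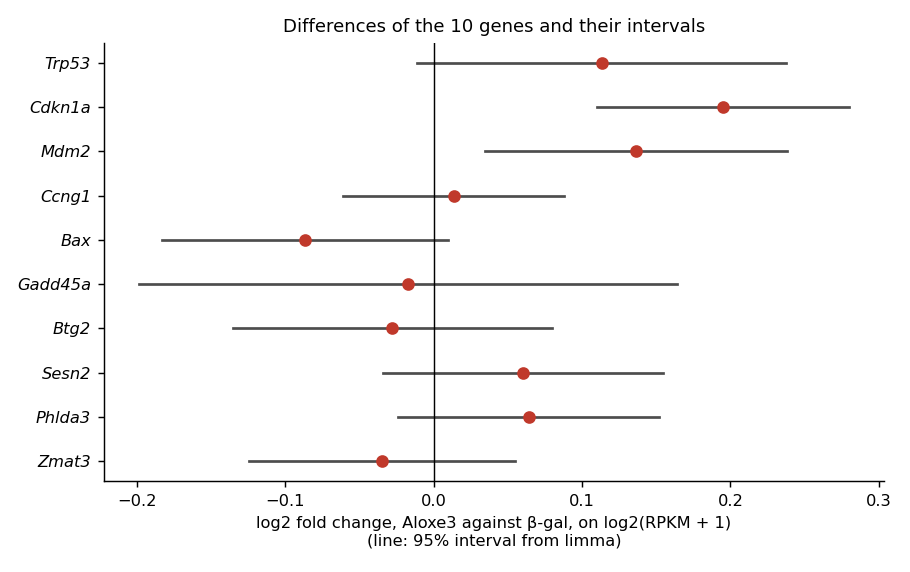
Log2 fold change of Aloxe3 against β-gal on the log2(RPKM + 1) scale (horizontal axis) for the 10 genes, points for the estimate and lines for the 95% interval from limma. The intervals of Cdkn1a (0.11 to 0.28) and Mdm2 (0.03 to 0.24) lie above 0, and those of the other 8 genes include 0. None of the 10 passed after adjustment over all genes.

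Other genes of the pathway were taken from lists of p53 regulators and of p53 targets by role. Of the 61 further targets listed, 59 were in the table and 55 were tested. Some genes stand in more than 1 list. Of the 55 tested 1 passed the adjusted threshold and was higher, where 0.355% of all genes tested were higher. Groups did not overlap with Aloxe3 higher for 13 of the 55 (23.6%, against 11.2% of all genes tested) and with Aloxe3 lower for 2 (3.64%, against 8.71%). Their median log2 fold change was 0.03. By list, the 10 genes included, the median was -0.0018 over 12 growth arrest genes, -0.00302 over 22 apoptosis genes, 0.05 over 15 metabolism and autophagy genes and 0.04 over 16 DNA repair and feedback genes. In the DNA repair and feedback list 13 of the 16 had a positive log2 fold change (81.25%, against 52.4% of all genes tested). Of the 16, 0 passed the adjusted threshold with limma or voom. Groups did not overlap with Aloxe3 higher for 7 of these 16 (43.8%, against 11.2% of all genes tested), and 4 of the 7 (Mdm2, Ppm1d, Pcna and Polk) had an unadjusted p under 0.05. In the other target lists this share was 25% (growth arrest), 13.6% (apoptosis) and 13.3% (metabolism and autophagy), and the difference between lists was not tested.

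The gene that passed was Pidd1, which encodes the scaffold of the PIDDosome, a complex that activates caspase-2 (chromosome 7, 141438113 to 141444025). It had 2.81, 2.61 and 2.52 RPKM with β-gal and 3.71, 3.76 and 4.14 RPKM with Aloxe3. The groups were far apart for so low a level, which rests on 338 to 518 reads per library. It differed by 0.42 on the log2 scale, with an SE of 0.0561 and an adjusted p of 0.0328 from limma. The call was lost whichever of the 6 libraries was removed (adjusted p from 0.0793 to 0.16), and with voom the adjusted p was 0.00134 (range over the alternatives 0.00134 to 0.164).

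Among other targets, Perp, a membrane protein linked to apoptosis, had lower values with Aloxe3 in every library. It had 72.2, 65.9 and 69.2 RPKM with β-gal and 64.3, 57.3 and 57.3 RPKM with Aloxe3, a log2 fold change of -0.21 that did not pass (adjusted p = 0.245 from limma). Siva1, another apoptosis gene, had a log2 fold change of 0.28 (adjusted p = 0.34), which ranged from 0.15 to 0.37 over the alternatives. Its Aloxe3 libraries had 19.5, 15.2 and 14.2 RPKM, replicate 7 the highest, against 13.5, 12.1 and 13.7 RPKM with β-gal. In the metabolic list the smallest p were those of Ddit4, Fdxr and Sesn1. Ddit4, an inhibitor of mTORC1, had a log2 fold change of -0.19 (adjusted p = 0.285). Fdxr, which passes electrons in mitochondria, had 0.14 (adjusted p = 0.348). Sesn1 had 0.12 (adjusted p = 0.537), and 0.067 to 0.21 over the alternatives. In the repair list Pcna, the sliding clamp of DNA polymerases, had 0.23 (adjusted p = 0.224), and in the growth arrest list Gtse1 had 0.14 (adjusted p = 0.321) and Cdc42bpg 0.10 (adjusted p = 0.411). None of these passed with limma. Sco2 and Tnfaip8l3 were listed at 0 in all libraries.

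Of the p53 family and its regulators, 22 of 25 genes in the table were tested and 0 passed, where 0.394% of all genes did, while 3 (13.6%, against 7.31% of all genes tested) had an unadjusted p under 0.05 and were higher. They were Mdm2, Ppm1d and Chek1. Ppm1d, a phosphatase that p53 induces and that switches p53 signaling off, had 3.06, 3.46 and 3.20 RPKM with β-gal and 3.88, 4.18 and 4.04 RPKM with Aloxe3. Its groups did not overlap, with a log2 fold change of 0.25 (adjusted p = 0.148 from limma). Chek1, a kinase of the replication checkpoint, had a log2 fold change of 0.27 (adjusted p = 0.216). Mdm4, the partner of Mdm2, was at 4.51 to 5.03 RPKM, with a log2 fold change of 0.04 (0.007 to 0.072 over the alternatives). Atm, the kinase that signals DNA breaks, was at 5.60 to 6.16 RPKM, with 0.02 (-0.0031 to 0.055 over the alternatives). The related factor Trp63 had 0 to 3 reads per library. Trp73 had 2 reads in each β-gal library and 10, 3 and 13 reads in the Aloxe3 libraries, all too low to be tested. Cdkn2a, the locus of the Mdm2 inhibitor Arf, had 8 to 14 reads.

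**Figure D3:**
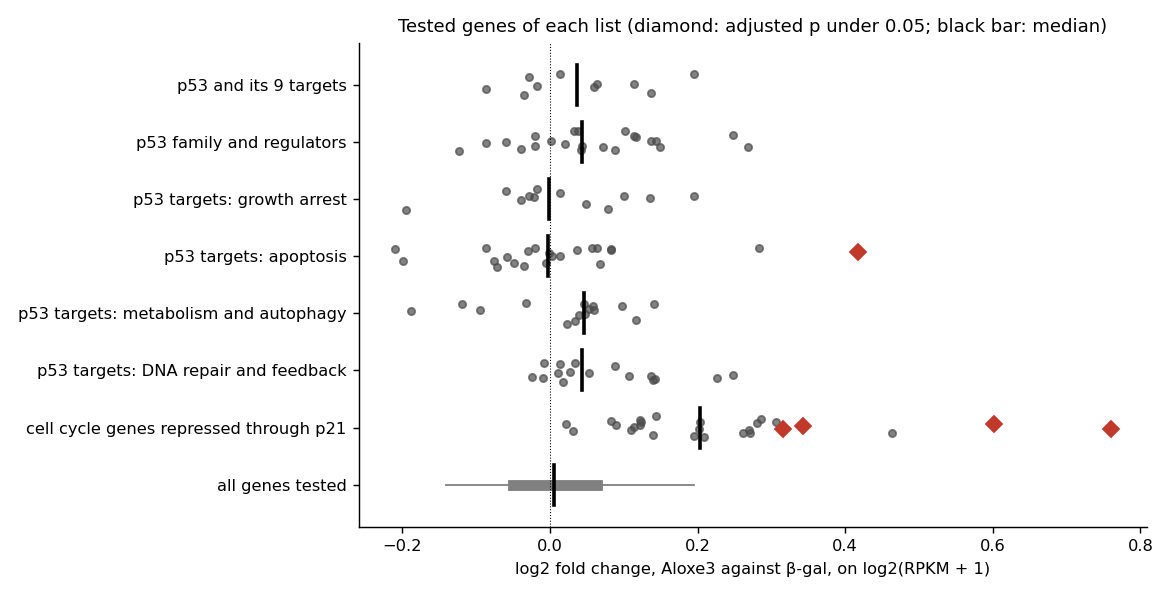
Log2 fold change of Aloxe3 against β-gal (horizontal axis) for the tested genes of each list, with diamonds for genes at an adjusted p under 0.05 and black bars for medians. The grey bar of all genes tested spans the interquartile range and its thin line the range from the 5th to the 95th percentile. The medians of the p53 lists lie between -0.00302 and 0.05, with Pidd1 apart at 0.42. Of the 16 DNA repair and feedback genes 13 lie above 0, where 52.4% of all genes tested do. The cell cycle list lies wholly above 0 with a median of 0.20.

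A list of cell cycle genes that p53 is known to repress through p21 was examined as well, and 4 of its 26 tested genes, Ccne1, Ccne2, Mcm6 and Rbl1, rose with Aloxe3. All 26 tested genes of this list had a positive log2 fold change, where 52.4% of all genes tested did, with a median of 0.20. Over the alternatives, Cdc20 and Mcm7 among them fell below 0 (lowest -0.032 and -0.006). At an unadjusted p under 0.05 there were 15 (57.7%, against 7.31% of all genes tested), and 4 passed the adjusted threshold (15.4%, against 0.355% of all genes tested in the higher direction). Groups did not overlap for 11 of the 26 (42.3%, against 11.2%), all with Aloxe3 higher. In some of the others a library of the Aloxe3 group was the lowest of all 6, as replicate 8 was for Aurkb (2.62 RPKM, against 2.74 to 2.90 RPKM with β-gal) and Birc5 (1.94 RPKM, against 2.00 to 2.12 RPKM). Ccne2, cyclin E2 of entry into S phase, had 2.17, 1.81 and 1.93 RPKM with β-gal and 3.95, 3.50 and 4.71 RPKM with Aloxe3, a log2 fold change of 0.76 (adjusted p = 0.025 from limma). It shares 609 exonic bases with Ints8 on the other strand. Ccne1, cyclin E1, had 13.8, 11.5 and 11.7 RPKM with β-gal and 20.03, 17.7 and 19.998 RPKM with Aloxe3, with a log2 fold change of 0.60 (adjusted p = 0.027). In both cyclins every Aloxe3 library was well above every β-gal library. The other genes were Rbl1, the pocket protein p107 (0.34, adjusted p = 0.0332), and Mcm6, a subunit of the replicative helicase (0.32, adjusted p = 0.0498). The count of 4 fell to 1 without β-gal replicate 1 (Ccne1), Aloxe3 replicate 8 (Ccne2) or Aloxe3 replicate 9 (Ccne2), and to 0 without any of the other 3 libraries.

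**Figure D4:**
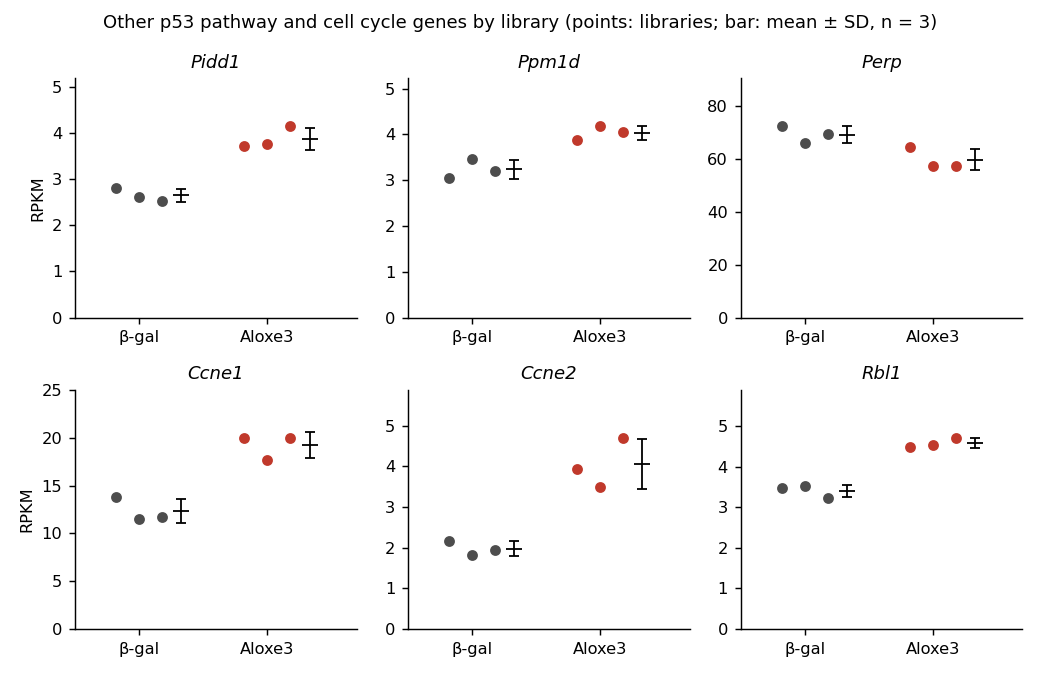
RPKM (vertical axes, from 0) of 3 further p53 pathway genes (Pidd1, Ppm1d, Perp) and 3 cell cycle genes (Ccne1, Ccne2, Rbl1) in the 3 β-gal (grey) and 3 Aloxe3 (red) libraries, with the mean and SD beside the points. In each panel the groups do not overlap. Perp is the gene with lower Aloxe3 values, and Ppm1d and Perp did not pass the adjusted threshold.

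The genes whose pattern over the 6 libraries was most like that of Trp53 and Cdkn1a were sought among 7365 other genes whose mean reached 5 RPKM. For Trp53 they were Shoc2, Jpt2 and Dnajc8, with Pearson r of log2(RPKM + 1) from 0.988 to 0.993. For Cdkn1a they were Ern1 (r = 0.996), Nasp (r = 0.992) and Unk (r = 0.991). Nasp, a histone chaperone of S phase, had 6.61 to 6.87 RPKM with β-gal and 8.17 to 8.74 RPKM with Aloxe3, with a log2 fold change of 0.30 (adjusted p = 0.0418 from limma). With 6 libraries, 39 genes had r over 0.95 with Trp53 and 38 with Cdkn1a. The points share their library and group, and these values are a description.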

How the data were processed

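Per the study's methods, poly-A selected RNA was sequenced as single reads of 50 bases, aligned with STAR 2.0.4b to Ensembl release 76 (GRCm38.p2) and counted per gene with featureCounts 1.4.5. The authors deposited 1 table of RPKM values for the 6 libraries, and how the counts were turned into RPKM is not given in the sources used here. Ensembl identifiers were mapped to symbols, positions and exon overlaps of GENCODE M21 (GRCm38). Values were compared as log2(RPKM + 1) with limma 3.58.1 in R 4.3.3 (lmFit and eBayes with trend, all 6 libraries, no covariate) on the 12693 genes whose mean reached 0.5 RPKM, with Benjamini-Hochberg adjustment and a threshold of 0.05. A fold change on this scale understates the change of low genes. Library sizes and whole reads per gene were derived from the whole-number steps of the RPKM values, and voom in limma was run on those reads as an alternative. Exact permutation tests (two-sided) used scipy 1.17.1.

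The 10 genes, the other lists and the tests were chosen with earlier results of these data known. The text gives all values of the 10 genes and, of each other p53 or cell cycle list, the 3 tested genes with the smallest unadjusted p and every gene past the threshold. Mdm4, Atm, Trp63, Trp73, Cdkn2a, Aurkb, Birc5, Polk and the single marker genes were named outside this rule. Groups were taken from the labels. Alternatives were another pseudocount (0.1), no filter or a filter at 5 RPKM, libraries rescaled to the same median, quantile normalization, eBayes without trend, voom, and each library left out in turn.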

Additional observations from a re-analysis of the deposited data

How the results depend on the processing

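Of 130 values of the 10 genes over 13 alternatives, 124 kept their direction and side of the threshold. Cdkn1a passed with voom (log2 fold change 0.20, adjusted p = 0.0231), so that 1 of the 10 genes did, against 0 in every other fit. Ccng1 was at -0.00039 with libraries rescaled to the same median. Gadd45a was at 0.022 with quantile normalization and between -0.092 and 0.045 with a library left out (0.045 without β-gal replicate 2, 0.0067 without Aloxe3 replicate 7, 0.034 without Aloxe3 replicate 9). The count of all genes past the threshold, 50, was 7 without a filter, 173 with voom and 6 to 19 with a library left out. In the p53 lists it was 1, and it was 0 without a filter, with the filter at 5 RPKM (which removed Pidd1), with the same median, with quantile normalization and in each fit with a library left out, and 2 with voom. In the cell cycle list it was 4, and it was 0 without a filter, 2 with the same median, with quantile normalization and without trend, 8 with voom and 0 to 1 with a library left out. Other than where the filter or the number of libraries sets it, the cause was not tested. With 3 libraries per group, differences of the size seen for Trp53 and Bax could not be told from the spread between replicates. No paired analysis was possible because the labels give the groups different replicate numbers (1 to 3 and 7 to 9) and name no pairing.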
